A study of Homo sapiens with 2 samples.

Results

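The dividing progenitors described here were 500 nuclei and 500 whole cells whose RNA carried the largest share of transcripts from 8 genes of G2 phase and mitosis. Brain organoids grown from the human embryonic stem cell line H9 were profiled by combinatorial barcoding (split-seq), in which a string of barcodes picked up well by well marks 1 cell or 1 nucleus. A barcode entered if it held over 2000 transcripts (nuclei library) or over 5000 (cells library) and at most 20% mitochondrial transcripts, and 11375 nuclei and 6779 cells did. Each barcode was scored by the summed counts of MKI67, TOP2A, CENPF, CENPE, ASPM, KIF14, BUB1 and AURKB divided by its transcripts. Among barcodes with at least 4 of the 8 genes detected (1940 nuclei and 2231 cells), the 500 highest scores in each library were taken, which is 4.40% of the nuclei and 7.38% of the cells that passed. The set was thus chosen by measured values of these libraries, so values of the 8 genes below are descriptions, and the ratios given with 1 of them left out come from largely the same barcodes.

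The cells library pooled whole cells of control (CO) organoids of day 45, 55 and 70, of organoids dissociated and reaggregated (DISS) and collected on day 48, 55 and 70, and of agarose-constrained (CONS) organoids of day 55, which had been freed from Matrigel on day 13 and embedded in 3% agarose. The nuclei library carries the words Control, Dissociated and Embed in its label. Its sample record lists days 45, 48, 55 and 70, embedding on day 13 and 3% agarose, as that of the cells does. The study instead describes nuclei of day 45 CO organoids taken whole or as single-cell suspensions, as control experiments. The title of the nuclei record, a control experiment with snRNA-seq, goes with that account. That of the cells names a time course across morphological perturbations. The days and embedding listed for the nuclei differ from the study's account, and which holds is not known. All organoids came from 1 line, and no sample used here links a barcode to a condition, a day or an organoid, so each library is 1 sample and no value below compares conditions. Without replicates no test was possible, intervals are exact 95% Poisson or binomial intervals that cover counting error only, and the range over sub-libraries (2 for nuclei, 8 for cells, aliquots of the same barcoded pool) shows technical spread.

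A dividing cell replicates its DNA in S phase, prepares for division in G2 and separates its chromosomes in mitosis. Cyclin B with the kinase CDK1 starts mitosis, spindle motors and kinetochore proteins move the chromosomes, and the anaphase-promoting complex ends it by marking cyclin B and securin for destruction. In the developing cortex the cells that divide are mainly radial glia, which carry SOX2 and PAX6 and divide at the ventricular surface, and intermediate progenitors, which carry EOMES and produce neurons.

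Depth differed between the libraries. The nuclei library held 82339738 transcripts and a median of 4658 per passing nucleus, and the cells library held 254967545 and a median of 10774 per passing cell. In the cells library 829 passing barcodes exceeded 30000 transcripts, the highest reaching 648550, and 55 of them were G2/M cells, so each level pooled over a set leans on deep barcodes. Scrublet, a doublet caller, marked 0 barcodes in each library, so doublets could not be removed by a call. Between the libraries 19 passing barcodes shared a name.

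The score of a G2/M nucleus had a median of 68.9 counts per 10000 transcripts and a highest value of 530, and that of a G2/M cell a median of 54.7 and a highest value of 233. All other nuclei had a median score of 0 and all other cells 1.79, and 55.8% of other nuclei and 23.5% of other cells had none of the 8 genes detected. The last nucleus taken scored 45.5 and the first left out 45.3. The last cell taken scored 29.7 and the first left out 29.6. No gap separates the set from the rest, so its size is a choice and not a count of dividing cells. All 8 genes were detected in 121 of the 500 nuclei and in 261 of the 500 cells.

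**Figure D1:**
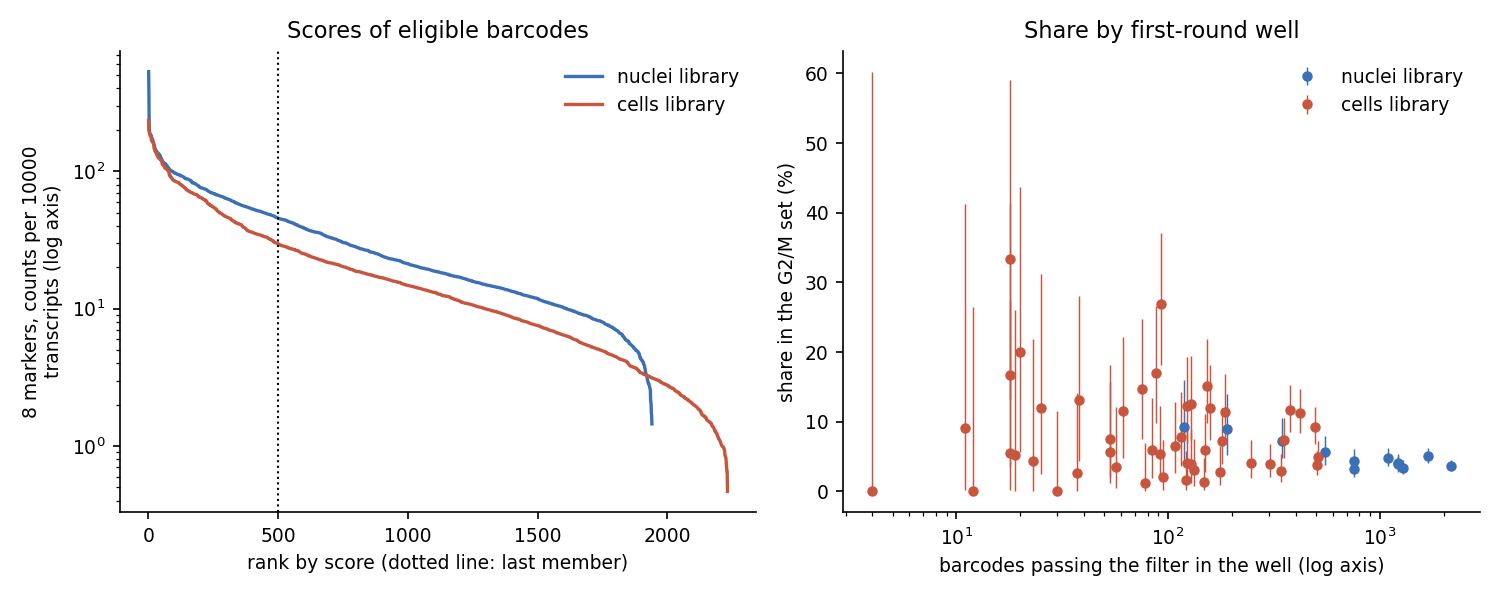
Left, score of each barcode with at least 4 of the 8 genes (counts per 10000 transcripts, log axis) by rank, with a dotted line at the last of the 500 taken, and right, share of passing barcodes in the G2/M set (%, with exact binomial intervals) against the passing barcodes of each first-round well (log axis). Scores fall without a step at the line (45.5 for nuclei, 29.7 for cells), and well shares run from 3.16% to 9.24% in nuclei and from 0% to 33.3% in cells, where the widest intervals belong to wells with few barcodes.

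The 8 genes are described with their positions on GRCh38 and pooled levels in counts per 10000 transcripts, all of them used by the choice. MKI67, which coats mitotic chromosomes, lies on the minus strand of chr10:128096659-128126423 and stood at 12.5 (95% interval 12.1 to 12.9) in G2/M nuclei and 1.05 in other nuclei, and at 13.6 (13.4 to 13.8) in G2/M cells and 1.27 in other cells. Over the sub-libraries its level was 12.5 in each of G2/M nuclei and ran from 11.7 to 16.1 in G2/M cells, above the 1.04 to 1.06 and 1.10 to 1.42 of the other barcodes. TOP2A, the topoisomerase that untangles chromosomes, lies on chr17:40388525-40417896 (minus), and AURKB, the kinase of the chromosomal passenger complex, on chr17:8204733-8210600 (minus). CENPF (chr1:214603185-214664574, plus) and CENPE (chr4:103105349-103198445, minus) act at kinetochores, and BUB1 (chr2:110637528-110678063, minus) is a kinase of the spindle checkpoint. ASPM (chr1:197084121-197146694, minus) works at spindle poles and is mutated in inherited microcephaly, and KIF14 (chr1:200551497-200620751, minus) is a motor of cytokinesis.

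A marker left out of the score gives a ratio that its own counts did not choose. With each of the 8 left out in turn and the 500 highest scores of the other 7 taken, the marker left out was 8.02-fold (AURKB) to 15.9-fold (ASPM) higher in the nuclei taken than in the other nuclei, and 8.95-fold (AURKB) to 12.2-fold (BUB1) higher in the cells. Each such set shared between 464 and 497 of its 500 barcodes with the set described here.

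Against all other barcodes of the same library, G2/M barcodes had a large block of mitotic genes at higher levels and the neuron and choroid plexus lists at lower levels. Each gene was given as the log2 ratio of pooled counts per 10000 transcripts, for genes with at least 200 counts, and past 2-fold is the limit used for counts. In nuclei 562 of 14554 genes (3.86%) were over 2-fold higher and 2208 (15.2%) over 2-fold lower. In cells 387 of 19727 genes (1.96%) were higher and 1285 (6.51%) lower. These counts depended on the settings. Over the alternatives tried, higher genes ran from 410 to 1416 in nuclei and from 332 to 1349 in cells, and lower genes from 1463 to 2624 and from 448 to 2545. Since the set was chosen within these barcodes, these are descriptions of the chosen set.

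The highest ratio outside the 8 genes belonged in both libraries to PIF1, a DNA helicase that acts at telomeres and in replication. PIF1 stood at 2.63 (2.44 to 2.82) in G2/M nuclei and 0.102 in other nuclei, a log2 ratio of 4.68, and at 1.59 (1.51 to 1.68) in G2/M cells and 0.0974 in other cells, a log2 ratio of 4.03. It was higher in G2/M than in other barcodes in 12 of 12 nuclei wells and in 18 of 18 cell wells that held at least 10 G2/M barcodes. KIF20A, a kinesin of the late mitotic spindle, followed with log2 ratios of 4.57 in nuclei (1.13 against 0.0475) and 3.98 in cells (0.788 against 0.0499). GAS2L3, which links actin to microtubules in the dividing cell, had log2 ratios of 4.29 and 3.54, and CCNB1, the cyclin B that drives mitotic entry, 4.26 and 3.88. CCNB1 stood at 1.34 (1.21 to 1.48) in G2/M nuclei and 0.0701 in other nuclei, and at 1.22 (1.14 to 1.29) in G2/M cells and 0.0826 in other cells, and its sub-library levels (1.29 to 1.38 and 1.07 to 1.52) did not overlap those of other barcodes (0.0685 to 0.0714 and 0.0707 to 0.0948).

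The other named genes at the top were also mostly parts of the division machinery. UBE2C and CDC20, which serve the anaphase-promoting complex, had log2 ratios of 4.19 and 4.12 in nuclei and 3.47 and 3.65 in cells. NEK2 and AURKA, kinases of the centrosome, had 4.06 and 3.95 in nuclei and 3.53 and 3.62 in cells, and PLK1, a kinase of mitotic entry and of the spindle, had 3.95 in nuclei and 3.29 in cells. SAPCD2 (3.89), TROAP (3.86), DEPDC1 (3.81) and SGO2 (3.80), the last a protector of centromeric cohesion, completed the named genes of the nuclei. In cells TROAP (3.78), CEP55 (3.53), DLGAP5 (3.51), DEPDC1 (3.50) and CDCA2 (3.49) completed them, of which CEP55 acts in the final cut between daughter cells and DLGAP5 in spindle assembly. MYLK2, a myosin light chain kinase best known from skeletal muscle, had log2 ratios of 4.00 and 3.61 from 105 and 249 counts. It lies on chr20:31819308-31834689, downstream of the spindle gene TPX2 (chr20:31739271-31801805) on the same strand, and whether reads running on from TPX2 contributed was not tested.

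**Figure D2:**
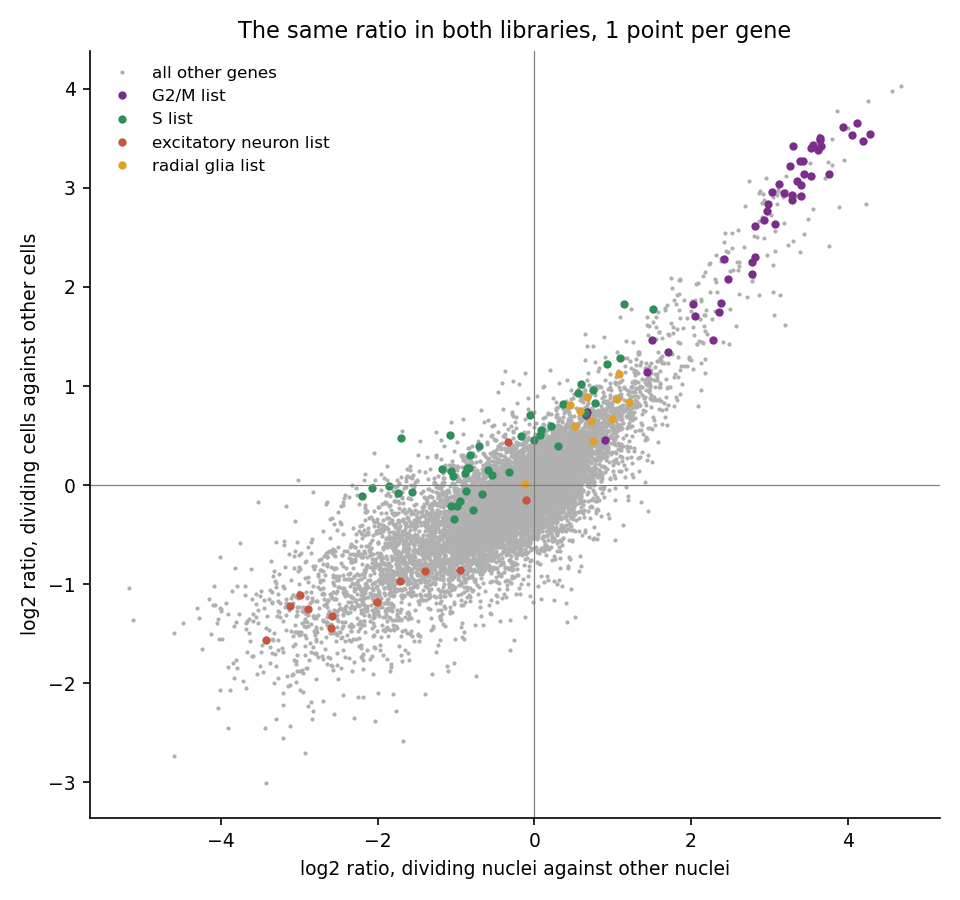
Log2 ratio of pooled level, G2/M against all other barcodes, in nuclei (x axis) and cells (y axis) for 14546 genes (points) with at least 200 counts in each library, with genes of the study's G2/M and S lists (the latter without HMGB2) and of the radial glia and excitatory neuron lists in colour. Of these, 300 were over 2-fold higher in both libraries, 715 over 2-fold lower in both, and 0 went past 2-fold in opposite directions.

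The libraries are separate samples read by the same rule, so their ratios can be set side by side. Over the 14546 genes that passed the filter in both, Pearson's r of the log2 ratios was 0.827 and Spearman's rho 0.755, across genes that are not independent. Among these shared genes 562 were over 2-fold higher in nuclei and 326 in cells, and the 300 higher in both were 53.4% and 92.0% of them. Lower genes numbered 2202 and 782, and the 715 lower in both were 32.5% and 91.4% of them. Among the 300, 96 belonged to a cell cycle list used here, 201 to no list, and 21 carried no symbol. Genes at lower levels lay further from 0 in nuclei than in cells, as the lists of other cell types below also show.

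Promoters of genes that peak in G2 and mitosis often hold a CHR element, TTTGAA, which the DREAM and MuvB complexes bind, and CCAAT boxes bound by NF-Y, while promoters of genes of the G1/S transition often hold E2F sites. The sequences below are RefSeq promoters on GRCh38.p14, 250 bases before to 50 bases after the gene's start, printed 5′ to 3′ on the gene's strand. Capitals mark TTTGAA, the CCAAT box and the E2F motifs TTTCCCGC and TTTGGCGC on either strand. The first 4 are genes with high ratios in the G2/M set, CDC20 (chr1:43358731-43359030, plus), CCNB2 (chr15:59104896-59105195, plus), PLK1 (chr16:23678639-23678938, plus) and PIF1 (chr15:64825598-64825897, minus), and the last 2, E2F1 (chr20:33686336-33686635, minus) and CDC6 (chr17:40287629-40287928, plus), are G1/S genes shown for contrast.
CDC20: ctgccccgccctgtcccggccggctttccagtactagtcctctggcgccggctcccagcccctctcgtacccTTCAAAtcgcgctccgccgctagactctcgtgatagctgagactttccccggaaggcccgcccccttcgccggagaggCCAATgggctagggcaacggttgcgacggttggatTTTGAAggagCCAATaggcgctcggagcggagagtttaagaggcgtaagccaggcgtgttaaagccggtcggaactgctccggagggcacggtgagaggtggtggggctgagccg
CCNB2: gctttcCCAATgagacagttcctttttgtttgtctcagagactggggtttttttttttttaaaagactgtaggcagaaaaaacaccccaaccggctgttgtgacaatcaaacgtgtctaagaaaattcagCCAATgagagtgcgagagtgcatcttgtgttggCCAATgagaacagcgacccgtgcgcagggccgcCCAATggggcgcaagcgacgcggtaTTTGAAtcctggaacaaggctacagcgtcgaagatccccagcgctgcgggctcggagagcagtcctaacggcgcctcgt
PLK1: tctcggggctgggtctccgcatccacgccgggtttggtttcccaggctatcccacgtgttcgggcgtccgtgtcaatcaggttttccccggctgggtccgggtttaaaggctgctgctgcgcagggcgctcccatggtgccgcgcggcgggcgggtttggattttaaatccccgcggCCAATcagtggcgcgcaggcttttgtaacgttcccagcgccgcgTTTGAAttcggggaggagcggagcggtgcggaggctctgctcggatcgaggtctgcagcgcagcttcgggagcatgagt
PIF1: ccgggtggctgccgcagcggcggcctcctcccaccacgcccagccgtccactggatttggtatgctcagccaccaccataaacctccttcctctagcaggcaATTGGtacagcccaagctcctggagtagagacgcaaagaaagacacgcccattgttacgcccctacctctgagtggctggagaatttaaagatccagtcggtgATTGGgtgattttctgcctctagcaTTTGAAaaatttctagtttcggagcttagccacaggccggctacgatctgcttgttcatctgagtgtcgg
E2F1: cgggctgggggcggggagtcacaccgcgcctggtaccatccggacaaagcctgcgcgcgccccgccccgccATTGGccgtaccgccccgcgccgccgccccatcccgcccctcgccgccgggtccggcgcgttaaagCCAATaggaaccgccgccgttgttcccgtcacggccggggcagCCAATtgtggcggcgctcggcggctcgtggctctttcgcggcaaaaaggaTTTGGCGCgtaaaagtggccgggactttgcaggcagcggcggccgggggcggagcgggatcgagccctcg
CDC6: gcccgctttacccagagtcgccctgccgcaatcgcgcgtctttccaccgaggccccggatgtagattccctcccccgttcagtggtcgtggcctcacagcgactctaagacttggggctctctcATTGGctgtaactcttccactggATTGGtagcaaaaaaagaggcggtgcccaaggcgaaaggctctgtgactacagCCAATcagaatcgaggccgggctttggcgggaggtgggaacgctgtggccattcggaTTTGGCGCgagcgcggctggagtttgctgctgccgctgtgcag

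In these windows TTTGAA stood 65 bases before the start in CDC20, 29 in CCNB2, 29 in PLK1 and 20 in PIF1, with a further match in reverse 178 bases before the start of CDC20. A CCAAT box in either orientation lay 55 bases before the start in CDC20, 54 in CCNB2, 73 in PLK1 and 45 in PIF1. Neither E2F1 nor CDC6 held TTTGAA, and each held TTTGGCGC, 20 bases before the start of E2F1 and 8 bases after that of CDC6. Over the study's G2/M list, whose 39 of 47 genes with a promoter in the table had 51 windows, TTTGAA was found in 64.7% of windows, CCAAT in 62.7% and both in 49.0%, beside 15.2%, 34.6% and 5.90% of all 35116 promoters. Over the study's S list without HMGB2 (32 of 43 genes, 43 windows) the shares were 9.30% for TTTGAA and 67.4% for CCAAT, and an E2F motif was in 34.9%, beside 3.92% of the G2/M windows and 2.27% of all. Of the 9 windows of the 8 genes used by the choice, 5 held TTTGAA, 8 CCAAT and 0 an E2F motif. A match describes letters in a window and not a bound site.

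The lists of the division machinery stood higher in G2/M barcodes, with most genes of each past 2-fold. Of all genes, 3.86% were over 2-fold higher in nuclei and 1.96% in cells, the shares to set beside the counts of each of these lists. Of the 47 genes of the study's G2/M list outside the 8, 44 were over 2-fold higher in nuclei and 44 in cells, with median log2 ratios of 3.19 and 2.93, beside a median over all genes of -0.17 and -0.14. The 3 others were the same in both libraries, the chromatin proteins CBX5 (0.66 and 0.71) and CTCF (0.68 and 0.73) and JPT1 (0.90 and 0.45).

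**Figure D3:**
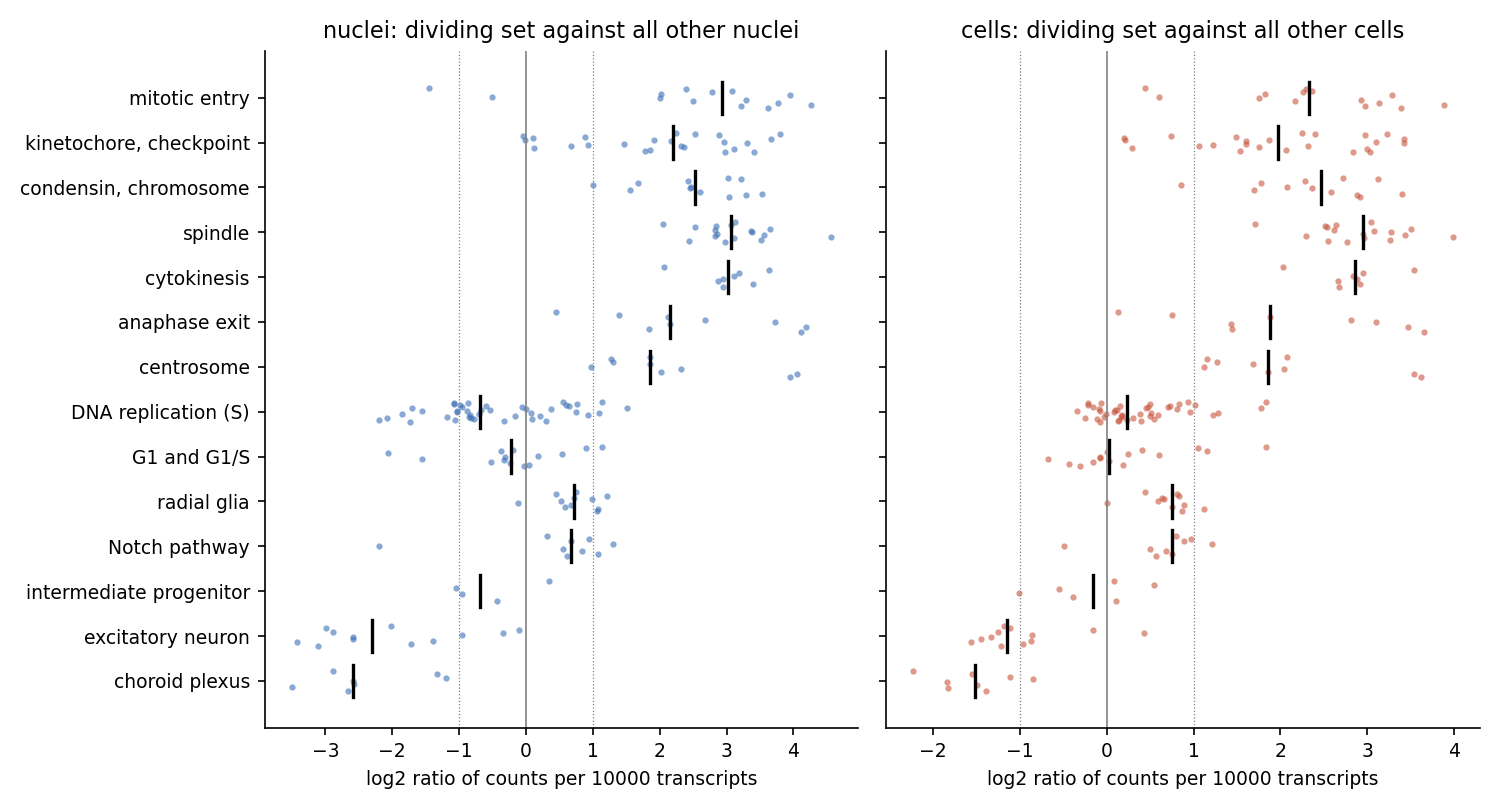
Log2 ratio of pooled level, G2/M barcodes (the dividing set) against all other barcodes, for each gene (points) of each list past the filter, with the S list shown without HMGB2, the list's median as a black bar and dotted lines at 2-fold, in nuclei and cells. Medians of the division machinery lie at 1.86 or higher in both libraries, and those of excitatory neuron and choroid plexus genes at -1.14 or lower.

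Among genes of mitotic entry, 12 of 14 were over 2-fold higher in each library, with medians of 2.93 in nuclei and 2.33 in cells. CDK1, the kinase that cyclin B activates, had log2 ratios of 3.62 and 3.38, and CDC25B and CDC25C, the phosphatases that release CDK1, had 2.49 and 3.28 in nuclei and 2.16 and 2.93 in cells. WEE1, which holds CDK1 back, was also higher (2.00 and 1.75). The transcription factor FOXM1, which drives G2 genes, had 2.39 and 2.29. The 2 exceptions were PKMYT1, a further inhibitor of CDK1, with -0.51 in nuclei and 0.60 in cells, and MYBL2, a factor of the MuvB complex, which was lower in nuclei (-1.46) and stood at 0.45 in cells.

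All 17 spindle genes and all 8 cytokinesis genes were over 2-fold higher in both libraries, with medians of 3.07 and 2.95 for the spindle and 3.02 and 2.86 for cytokinesis. The spindle motors KIF11 (2.98 and 2.77), KIF18A (3.52 and 3.26) and KIF2C (3.56 and 3.43) had ratios of like size, and CKAP5, a microtubule polymerase that resting cells also use, had the smallest of the cells (1.71). For cytokinesis, ANLN, the scaffold of the contractile ring, had 2.94 and 2.68, PRC1, which bundles the midzone, 3.11 and 2.84, and the formin DIAPH3 2.07 and 2.03.

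Kinetochore and checkpoint genes were over 2-fold higher for 17 of 24 in nuclei and 20 of 24 in cells, with medians of 2.20 and 1.97. The shares of all genes were 3.86% and 1.96%. The checkpoint kinase TTK had 3.66 and 3.43, the outer kinetochore proteins NUF2 and NDC80 3.40 and 2.98 in nuclei and 3.03 and 2.83 in cells, and CENPA, the histone of the centromere, 2.36 and 1.75. MAD1L1 (-0.02 and 0.22), MIS12 (0.12 and 0.29) and ZWILCH (0.11 and 0.20) did not pass 2-fold in either library. Of 12 condensin, passenger complex and chromosome genes 11 were higher in each library (medians 2.53 and 2.47), all except NCAPD3 of condensin II (1.00 and 0.85, of which the nuclear value lies just under the limit). HMGB2, a chromatin protein of proliferating progenitors, had 3.02 and 2.72.

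Genes of the anaphase-promoting complex and its partners were higher for 8 of 9 in nuclei and 7 of 9 in cells. PTTG1, which is securin, had 3.72 and 3.10, FZR1, the activator of mitotic exit, 1.83 and 1.45, and the subunit ANAPC1 0.45 and 0.13. Centrosome genes were higher for 8 of 9 in nuclei and 9 of 9 in cells, with medians of 1.86 in each. Among them WDR62 (1.86 and 2.08), CDK5RAP2 (1.28 and 1.16) and CENPJ (0.97 and 1.12), like ASPM, are known as microcephaly genes.

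**Figure D4:**
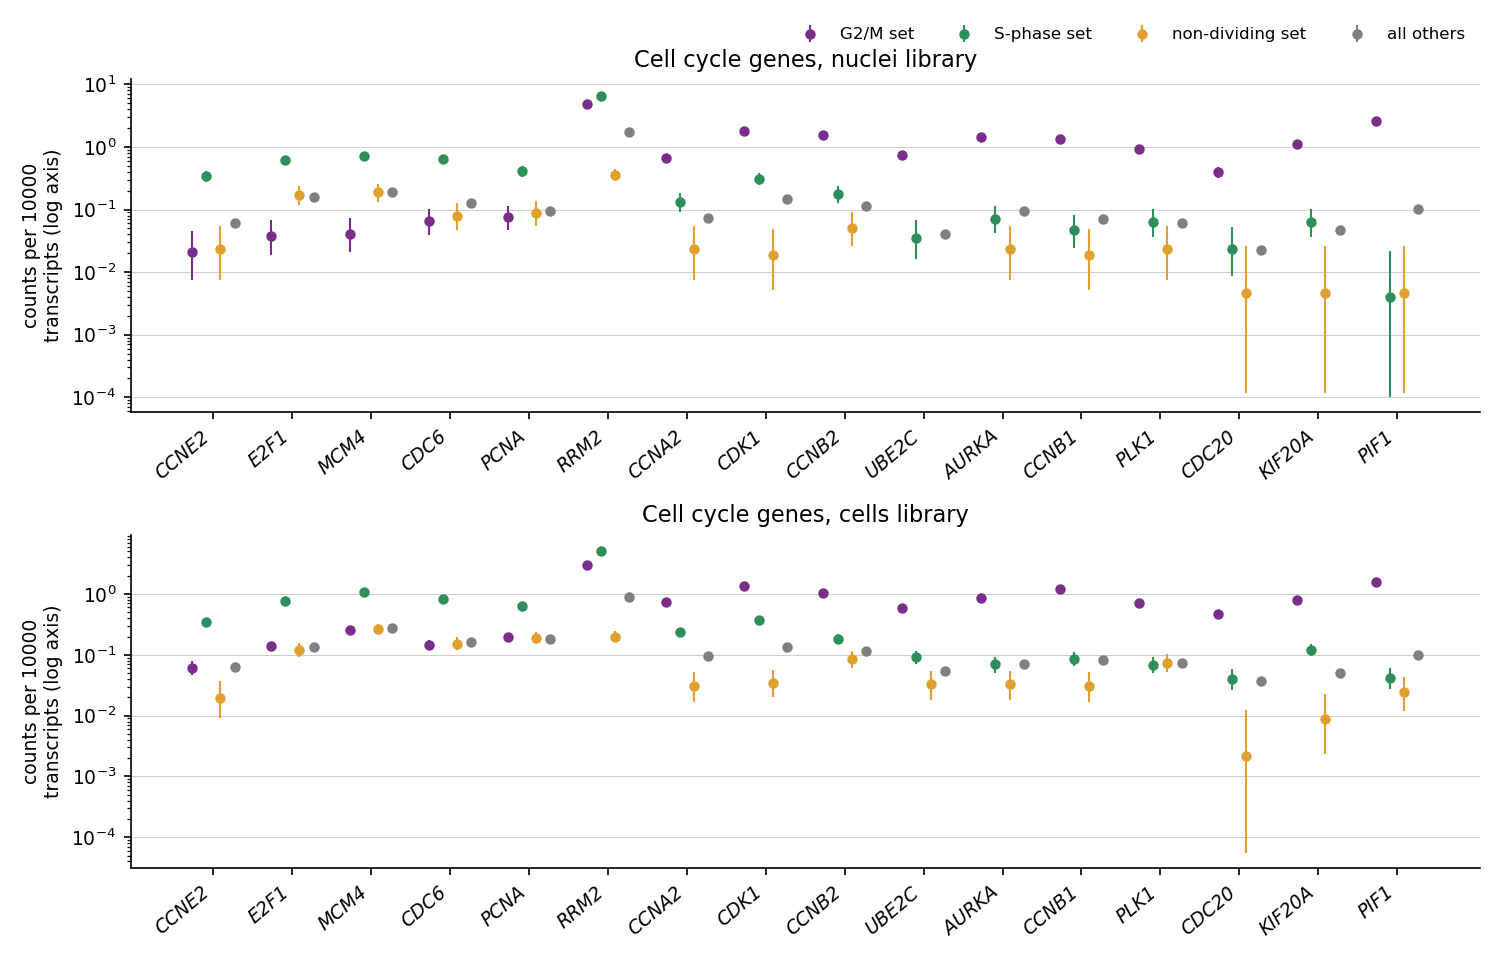
Pooled levels (counts per 10000 transcripts, log axis) of cell cycle genes in the G2/M, S-phase, non-dividing and all other barcodes, with 95% Poisson intervals and a set with 0 counts left undrawn. CCNB1 stands at 1.34 in G2/M nuclei and 0.0701 in other nuclei, and E2F1 at 0.0379 and 0.158.

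Shares of barcodes with a count were compared after each barcode was thinned to 2000 transcripts (nuclei) or 5000 (cells). CCNB1 was detected in 25% (21.3 to 29.0) of G2/M nuclei and 0.864% of other nuclei, and in 39.0% (34.7 to 43.4) of G2/M cells and 3.03% of other cells. In the 500 barcodes with the highest share of excitatory neuron genes, which should lack it, CCNB1 was found in 0.4% of nuclei and 0.8% of cells at median depths of 5349 and 10981.5 transcripts, close to the 5196 and 12286.5 of G2/M barcodes. In the choroid plexus sets described below it was found in 0.5% of nuclei and 3.5% (1.42 to 7.08) of cells. At least 1 of CCNB1, CDC20 and PLK1 was detected in 43.0% of G2/M nuclei and 59.4% of G2/M cells, beside 2.26% and 6.66% of the other barcodes and 1.8% and 4.0% of the neuron sets. The choroid plexus sets had 1.0% and 6.0%, and the non-dividing sets 1.0% and 5.2%. CCNA2, the cyclin of S phase and G2 that is destroyed early in mitosis, was detected in 11.8% and 26.8%, and together with CCNB1 in 3.6% and 12.6%. At this depth a barcode without a count cannot be told from one without the transcript.

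The nearest other dividing barcodes were those in S phase, taken as the 500 barcodes outside the G2/M set with the highest share of transcripts from 12 replication genes. Here 835 of 14542 genes (5.74%) were over 2-fold higher in G2/M nuclei and 1405 (9.66%) lower, and in cells 939 of 19715 (4.76%) were higher and 587 (2.98%) lower. Mitotic genes standing higher and replication genes lower in G2/M barcodes follow in part from how both sets were chosen. Values of such genes against the S-phase sets are therefore descriptions. By their S-phase score the sets were apart in nuclei, where 0 of 500 G2/M nuclei reached the lowest score of the S-phase set, and touched in cells, where 35 (7.0%) did.

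PIF1 had the highest ratio of the named genes here, with 762 counts in G2/M nuclei and 1 in S-phase nuclei, and 1465 in G2/M cells and 27 in S-phase cells, a log2 ratio of 5.26 in cells. CCNB1 (4.82 and 3.81), AURKA (4.35 and 3.63), GAS2L3 (4.40 and 3.41), CDC20 (4.05 and 3.55) and PLK1 (3.88 and 3.40) were also among the genes furthest above S phase. At the other end, CCNE2, cyclin E2 of the G1/S transition, had log2 ratios of -4.04 in nuclei and -2.49 in cells, E2F1, the transcription factor of that transition, -4.01 and -2.48. CCNE1, under the filter in nuclei, had 2 counts in G2/M and 28 in S-phase nuclei, and a log2 ratio of -2.86 in cells. The licensing factor CDC6 stood at 0.0655 in G2/M nuclei and at 0.146 in G2/M cells, log2 ratios of -3.28 and -2.50 against S phase.

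The study's S list has 44 genes, of which HMGB2 is also among the chromosome genes above. Outside the 12 genes that chose the S-phase set, 27 of 33 genes of the list that passed the filter were over 2-fold lower in G2/M than in S-phase nuclei and 25 of 34 in cells, with medians of -1.73 and -1.27. HMGB2 was the 1 gene of them over 2-fold higher, at 2.23 and 1.72. Without HMGB2 the medians were -1.86 and -1.30. Of all genes, 9.66% in nuclei and 2.98% in cells were over 2-fold lower in this comparison. The S-phase set was ranked by genes of the same phase, so these values of the list are descriptions. Against all other barcodes the libraries parted. The whole S list had a median of -0.67 in nuclei, with 4 of 43 genes over 2-fold higher and 12 lower, and of 0.27 in cells, with 6 of 44 higher and 0 lower, and HMGB2 was its highest gene in both. Of all genes 3.86% were higher and 15.2% lower in nuclei, and 1.96% and 6.51% in cells. Without HMGB2 the medians were -0.69 and 0.23, with 3 and 5 genes higher. MCM4, a subunit of the replicative helicase, stood at 0.0413 in G2/M nuclei and 0.190 in other nuclei, but at 0.251 in G2/M cells and 0.272 in other cells. E2F1 likewise had a log2 ratio of -2.06 in nuclei (0.0379 against 0.158) and 0.00 in cells (0.137 against 0.137). RRM2, a subunit of ribonucleotide reductase, was higher in both (1.52 and 1.78), as was the E2F repressor E2F8 (1.14 and 1.83). Neither the cause of the difference between the libraries nor the part of the G2/M cells that reached the S-phase score was tested.

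Not all mitotic lists had a median over 2-fold higher in G2/M than in S-phase barcodes, which were chosen outside the G2/M set. Of the study's G2/M list 43 of 47 genes in nuclei and 37 in cells were over 2-fold higher (medians 2.33 and 1.81). Of the spindle list 16 and 13 of 17 were (2.06 and 1.35). Of all genes, 5.74% were higher and 9.66% lower in nuclei, and 4.76% and 2.98% in cells. Centrosome genes had medians of only 0.63 and 0.17, and AURKA and NEK2 alone of the 9 passed 2-fold in each library. The kinetochore list was divided, with 11 of 24 higher and 5 lower in nuclei and 10 higher and 4 lower in cells. CENPK (-1.05 and -1.12), CENPU (-1.05 and -1.20), ZWINT (-1.03 and -1.13) and KNTC1 (-1.69 and -1.49), of the inner kinetochore and of the recruitment of the checkpoint, were over 2-fold lower in G2/M than in S-phase barcodes of both libraries. FOXM1 was higher in nuclei (1.12) and at 0.29 in cells, and MYBL2 was lower in both (-3.75 and -2.25).

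Among inhibitors of cyclin-dependent kinases, CDKN2C, which encodes p18 and binds CDK4 and CDK6, was higher in G2/M than in all other barcodes, with log2 ratios of 3.19 from 135 counts in all nuclei, under the filter, and 2.74 in cells. CDKN1B, which encodes p27, had 0.99 and 0.47. CDKN1A, which encodes p21, stood the other way at -0.91 and -0.59, as did CDKN1C in cells (-0.67), where CDKN2D had 0.35. In nuclei CDKN1C and CDKN2D were under the filter, with 4 and 3 counts in the G2/M set. Of the 5 inhibitors CDKN2C was the only one past 2-fold against all other barcodes in cells, and neither of the 2 past the filter in nuclei was, beside 3.86% of all genes higher in nuclei and 1.96% in cells. Against the S-phase sets 3 of 5 were over 2-fold higher in cells (4.76% of all genes) and 0 of 2 in nuclei (5.74%). Against the non-dividing sets 3 of 5 were higher and 1 lower in cells (4.59% and 4.21% of all genes). In nuclei 0 of 2 were higher and 1 lower there (6.84% and 8.2%). The D cyclins of G1 were near the other barcodes, with CCND1 at -0.03 and -0.31 and CCND2 at 0.04 and 0.19.

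The name progenitors was checked against cell type lists. Radial glia genes had median log2 ratios of 0.72 in nuclei and 0.75 in cells against all other barcodes, and 10 of 11 in nuclei and 11 of 11 in cells lay above 0, although only 3 and 1 were over 2-fold higher, beside 3.86% and 1.96% of all genes. Outer radial glia genes had medians of -0.58 in nuclei, where 1 of 6 was over 2-fold higher and 2 were lower (15.2% of all genes were lower), and -0.23 in cells, where 0 of 7 passed 2-fold in either direction (1.96% of all genes higher and 6.51% lower). With so few genes no difference from these shares is read. Their summed level was 6.44 in G2/M nuclei and 7.27 in other nuclei, and 7.68 and 7.97 in cells. PAX6, the cortical progenitor factor, stood at 2.78 (2.59 to 2.98) in G2/M nuclei and 1.31 in other nuclei, and at 3.13 (3.02 to 3.25) in G2/M cells and 1.44 in other cells. Its sub-library levels of 2.75 to 2.80 and 2.62 to 3.71 lay above the 1.28 to 1.34 and 1.38 to 1.51 of other barcodes. SOX2, the factor of neural stem cells, had log2 ratios of 1.06 and 0.87, and the intermediate filament gene VIM 1.21 and 0.84. SLC1A3, the glial glutamate transporter of radial glia, was the exception, at -0.12 (1.62 against 1.76) and 0.01 (1.72 against 1.70), and at -1.02 and -0.72 against the S-phase sets.

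**Figure D5:**
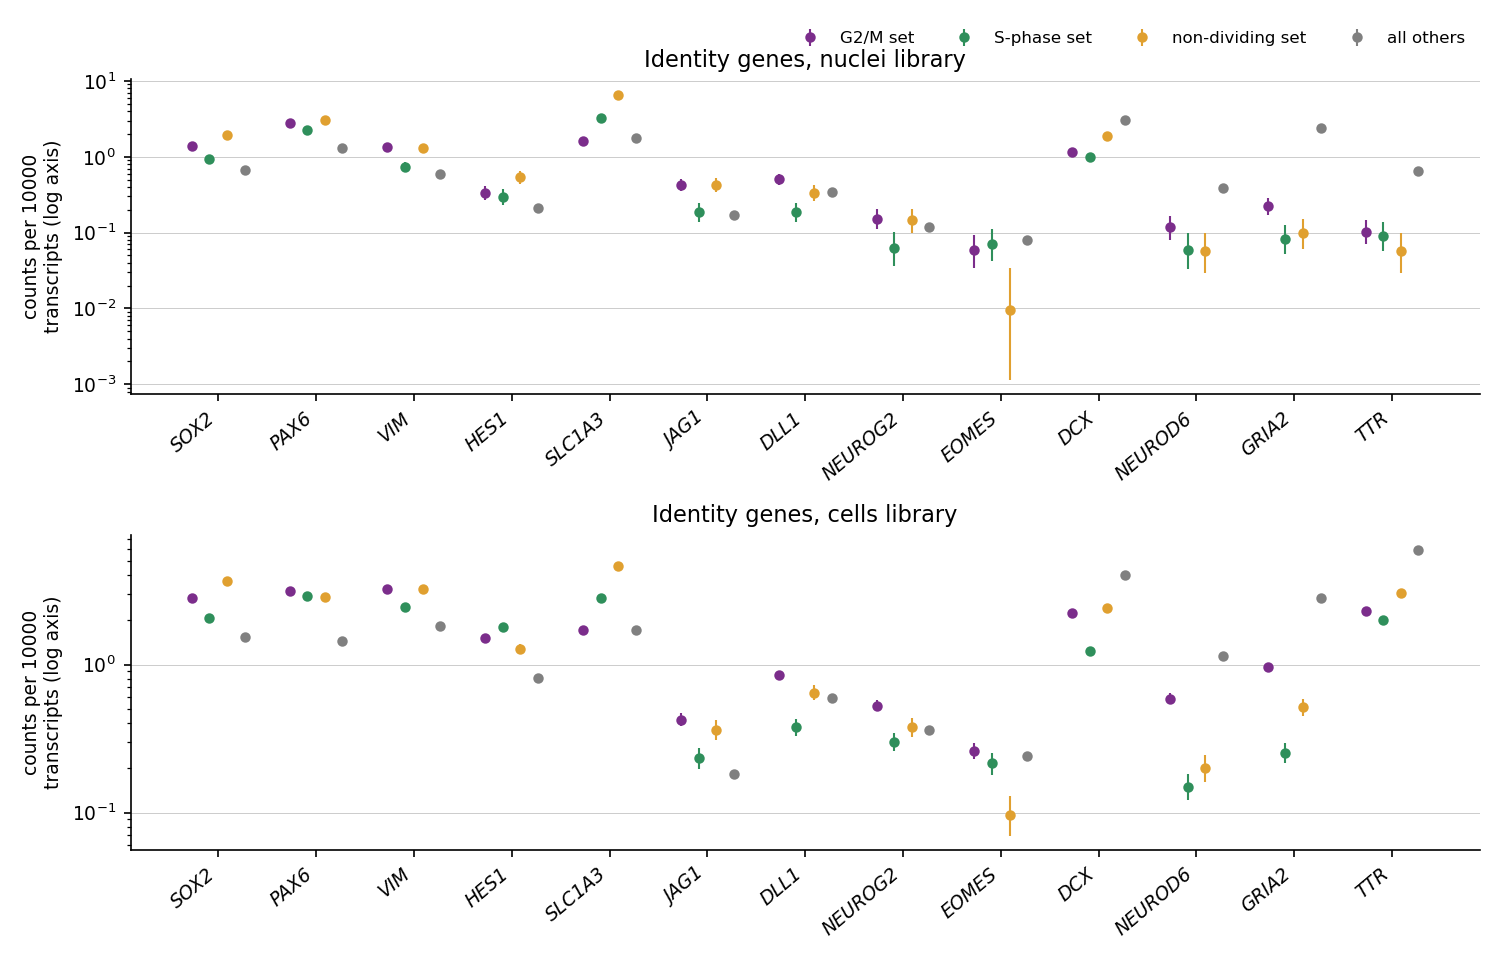
Pooled levels (counts per 10000 transcripts, log axis) of cell type genes in the G2/M, S-phase, non-dividing and all other barcodes, with 95% Poisson intervals. PAX6 stands at 2.78 in G2/M nuclei and 1.31 in other nuclei, and GRIA2 at 0.224 and 2.40.

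The summed level of the 11 radial glia genes was 32.7 in G2/M nuclei, 35.2 in the S-phase set and 20.9 in all other nuclei, and 34.2, 39.2 and 20.7 in cells. After thinning, at least 2 of 8 radial glia genes were detected in 90.8% (87.9 to 93.2) of G2/M nuclei and 54.4% of other nuclei, and in 98.6% of G2/M cells and 80.1% of other cells. The neuron sets had 6.6% and 47.4%, and the choroid plexus sets, the 200 barcodes of each library with the highest share of choroid plexus genes, 19.0% and 82.5% at median depths of 9667 and 14851. PAX6 alone was detected in 76.6% (72.6 to 80.2) of G2/M cells, 41.0% of other cells, 19.8% of the neuron set and 7.0% of the choroid plexus set. In nuclei PAX6 was detected in 43.8% (39.4 to 48.3), 21.4%, 3.2% and 2.0% in the same order. Against S-phase barcodes radial glia genes were close, with medians of 0.23 and 0.05 and PAX6 at 0.29 and 0.12.

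EOMES, the factor of intermediate progenitors, could not be told apart between G2/M and other barcodes at this depth. It was detected in 1.4% (0.565 to 2.86) of G2/M nuclei and 1.42% of other nuclei, and in 8.8% (6.47 to 11.6) of G2/M cells and 7.17% of other cells, intervals that hold the other value. The neuron sets had 0.6% and 5.6% and the choroid plexus sets 0% and 0.5%, where a count of 0 among 200 allows up to 1.5% taken as 3 counts and 1.83% as the exact upper limit. The S-phase sets had 1.2% and 7.4%. The non-dividing sets, ranked by radial glia genes and described below, had 0.2% (0.00506 to 1.11) and 3.0% (1.69 to 4.9). In cells this interval lies below that of the G2/M set, and in nuclei the intervals overlap. EOMES and PAX6 were detected together in 1.2% of G2/M nuclei and 7.0% of G2/M cells, and EOMES without PAX6 in 0.2% and 1.8%. Among other barcodes 0.340% and 3.15% had both and 1.08% and 4.01% EOMES without PAX6. With PAX6 itself in 43.8% and 76.6% of G2/M barcodes and in 21.4% and 41.0% of the others, no link between the genes is read from these shares. Before thinning the EOMES shares were 2.2% and 3.49% for nuclei and 15% and 14.8% for cells. The 6 genes of the intermediate progenitor list had medians of -0.69 in nuclei, where 4 passed the filter, and -0.15 in cells against all other barcodes. Against the non-dividing sets the medians were 0.74 and 0.92. There 2 of 4 and 3 of 6 were over 2-fold higher, beside 6.84% and 4.59% of all genes, and 0 were over 2-fold lower. The non-dividing sets were ranked by radial glia genes, so barcodes with less of these were less likely to enter. Their EOMES shares and intermediate progenitor values thus follow in part from that choice and are descriptions.

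Within the G2/M cells, the 44 with EOMES after thinning were set beside the 456 without, at median depths of 12042.5 and 12377.5 transcripts. Before thinning 75 of the 500 held EOMES, so some of the 456 hold it too. The ratios use counts before thinning. Beyond EOMES itself, which chose them, INSM1 (log2 ratio 2.24, from 16 and 28 counts), a factor of basal progenitors, DLL3 (1.76) and DLL1 (1.33), Notch ligands of differentiating progenitors, and NHLH1 (1.58) and PPP1R17 (1.48) of the same lineage stood higher, as did the neuronal factor NEUROD6 (1.57). NEUROG2 of the intermediate progenitor list (-0.28) and GRIA2 of the neuron list (-0.23) stood lower. The Notch target HES1 (-1.10), VIM (-0.72) and SOX2 (-0.63) stood lower, and PAX6 differed little (-0.17). The study's G2/M list had a median of -0.39 between them, so its genes stood lower in the cells with EOMES. In nuclei only 7 had EOMES, which is too few for such a description.

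Notch receptors, ligands and targets had medians of 0.67 in nuclei and 0.75 in cells against all other barcodes, and 2 of 9 and 1 of 9 were over 2-fold higher, beside 3.86% and 1.96% of all genes. DLL3 stood at -2.20 and -0.49. Against the S-phase sets the medians were 0.17 and 0.20, and against the non-dividing sets 0.00 and 0.14. NEUROG2, the proneural factor of cortical progenitors, stood at 0.34 and 0.54 against all other barcodes and at 1.26 and 0.81 against S phase. The ligand DLL1 behaved alike (0.56 and 0.50, then 1.45 and 1.17), and the ligand JAG1 was over 2-fold higher than in other barcodes in both libraries (1.30 and 1.21). The receptor NOTCH2 had 1.08 and 0.75.

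Excitatory neuron and choroid plexus genes were lower in G2/M than in all other barcodes. The excitatory neuron list had a median of -2.30 in nuclei, with 9 of 12 over 2-fold lower (15.2% of all genes), and of -1.14 in cells, with 7 of 12 (6.51%). GRIA2, a glutamate receptor subunit, stood at 0.224 (0.173 to 0.285) in G2/M nuclei and 2.40 in other nuclei, and at 0.958 (0.896 to 1.02) in G2/M cells and 2.83 in other cells. Against the S-phase sets the neuron list had medians of 0.51 and 0.88. In nuclei 3 of 12 genes were over 2-fold higher and 1 lower, and in cells 5 of 12 were higher and 0 lower, beside 5.74% of all genes higher and 9.66% lower in nuclei and 4.76% and 2.98% in cells. TBR1, a factor of deep-layer neurons, had 23 counts in G2/M and 3 in S-phase nuclei, and a log2 ratio of 1.87 in cells. The summed level of the 12 genes was 13.5 in G2/M nuclei (12.7 to 14.0 over sub-libraries), 9.29 in S-phase nuclei and 24.3 in other nuclei, and 16.6 (13.3 to 19.4), 10.0 and 27.0 in cells, and none of the 12 was at 0. At least 3 of the 12 were detected in 9.6% of G2/M nuclei and 56.2% of G2/M cells after thinning, in 3.0% and 16.5% of the choroid plexus sets, and in 7.6% and 42.8% of the S-phase sets. The non-dividing sets had 11.2% and 54.6%, and all other barcodes 40.8% and 74.8%. In barcodes of 10 to 100 transcripts GRIA2 stood at 2.19 and 2.72, and the part of free RNA and of doublets in the values of G2/M barcodes was not tested.

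The choroid plexus list had medians of -2.59 in nuclei (7 of 7 past the filter over 2-fold lower, beside 15.2% of all genes) and -1.52 in cells (7 of 8, beside 6.51%). Its summed level was 4.86 in G2/M nuclei (3.63 to 6.38 over sub-libraries) and 28.5 in other nuclei, and 8.40 (4.46 to 18.0) and 23.1 in cells. S-phase and non-dividing nuclei stood at 1.25 and 0.968, below the G2/M nuclei, and the same sets of cells at 8.95 and 7.78. The serotonin receptor gene HTR2C alone gave 4.43 of the 4.86. Against each of these sets 3 of 7 genes were over 2-fold higher in G2/M nuclei, beside 5.74% and 6.84% of all genes, and 0 and 1 were over 2-fold lower, beside 9.66% and 8.2%. The medians were 0.18 and 0.87, and the medians in cells were -0.06 and 0.03. Against all other barcodes no gene of the list past the filter lay above 0, with FOLR1 at 0 counts in G2/M nuclei and no gene at 0 counts in G2/M cells. Cortical hem genes had -1.72 and -0.89 and Cajal-Retzius genes a median of -2.39 over 3 genes in nuclei, with the 2 that passed the filter in cells at -1.29 and -1.49, and with LHX1 at 0 counts in the G2/M set of each library. Of the 8 inhibitory lineage genes 3 passed the filter in each library. In nuclei 1 was over 2-fold higher and 2 lower (3.86% and 15.2% of all genes), and in cells 1 and 1 (1.96% and 6.51%). Their log2 ratios ran from -3.81 to 2.13 in nuclei and from -1.39 to 1.235 in cells. The summed level of the 8 was 0.141 in G2/M and 0.284 in other nuclei. In cells it was 0.470 (0.31 to 0.684 over sub-libraries) and 0.313 (0.295 to 0.339). The S-phase sets stood at 0.0713 and 0.187. Any DLX gene was detected in 0% of G2/M nuclei, where a count of 0 allows up to 0.6% taken as 3 counts and 0.735% as the exact upper limit, and in 0.147% of other nuclei. In cells the share was 1.2% (0.442 to 2.59) in the G2/M set and 0.494% of other cells, which lies inside that interval. The 2 mesenchyme genes that passed the filter in nuclei stood at 0.21 and 0.43, and 4 in cells had a median of -0.65.

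Among the lowest single genes in nuclei were the potassium channel gene KCNC2 (3 counts in G2/M and 2429 in other nuclei), the neuronal factor EBF3 (log2 ratio -5.12), ARMC3 (-4.61), RELN of Cajal-Retzius neurons (-4.60), SPHKAP (-4.48), CDH7 (-4.28) and SEZ6 (-4.13). In cells 5 of the 10 lowest were long noncoding RNAs. The other 5 were DYNLT5 (-3.01), FAM216B with 3 counts against 290, CCNO (-2.75), a regulator of multiciliated cells, ARMC3 (-2.73) and SLC39A12 (-2.70), a zinc transporter. ARMC3, whose product is known from cilia and sperm, was among the lowest genes of both libraries, at 0.0276 against 0.671 in nuclei and 0.0805 against 0.535 in cells.

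G2/M barcodes were also set beside 500 non-dividing radial glia, the barcodes with the highest share of 8 radial glia genes and at most 1 of the 8 mitotic markers. Here 995 of 14546 genes (6.84%) were over 2-fold higher in G2/M nuclei and 1193 (8.2%) lower, and in cells 905 of 19719 (4.59%) were higher and 830 (4.21%) lower. The study's G2/M list had medians of 4.70 and 3.90, and 45 and 44 of its 47 genes passed 2-fold. A set held to 1 mitotic marker is low in such genes by its choice, so these values and those of the mitotic genes that follow are descriptions. All 9 centrosome genes passed it in both libraries. In nuclei GTSE1 (log2 ratio 7.08), CDK1 (6.58) and SGO2 (6.51) had among the highest ratios. PIF1 with 762 counts against 1, KIF2C with 702 against 2, TTK with 695 against 3, FAM83D with 440 against 3 and CKAP2L with 493 against 0 stood with them. In cells TROAP (6.58), KIF20A (6.50), PIF1 (6.05), TTK (5.89), HJURP (5.78), ESPL1 (5.75) and CDCA8 (5.75) led, with CDC20 at 432 counts against 1.

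Radial glia genes that did not choose the non-dividing set (VIM, NES and FABP7) had a median of -0.57 in nuclei and -0.01 in cells. BCAN, which encodes a proteoglycan of the brain matrix, was lower in G2/M cells, at 14 counts against 61 (log2 ratio -3.13). The S list had medians of -0.23 and 0.52, with 11 of 43 higher and 10 lower in nuclei and 17 of 44 higher and 0 lower in cells, beside the shares of all genes given above, and without HMGB2 10 of 42 and 16 of 43 were higher. The neuron list stood at 0.17 and 0.55. The non-dividing sets were shallower (medians of 3726.5 and 7617.5 transcripts), and the limit of 1 marker makes shallow barcodes more likely to enter.

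Immediate-early genes had medians of 0.93 in nuclei, where 2 of 6 were over 2-fold higher (3.86% of all genes), and 0.49 in cells, where 0 of 7 were (1.96%), against all other barcodes, with EGR1 at 1.24 and 0.80 and FOS at 1.11 and 0.66. Against the S-phase sets the medians were 0.90, with 3 of 6 over 2-fold higher (5.74% of all genes), and -0.11. Against the non-dividing sets they were -0.27 and -0.004, and 0 of 6 and 0 of 7 passed 2-fold. Against all other barcodes, glycolysis and hypoxia genes had medians of -0.15 and -0.44, beside -0.17 and -0.14 over all genes. They ran from -1.05 to 0.83 in nuclei and from -0.97 to -0.03 in cells. In nuclei 1 of 9 was over 2-fold lower (15.2% of all genes) and in cells 0 of 9 (6.51%). The glucose transporter SLC2A1 stood at -1.05 and -0.40 and VEGFA at -0.49 and -0.97.

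The median depth of G2/M barcodes was 5196 transcripts in nuclei and 12286.5 in cells, beside 4642 and 10680 in all other barcodes and 4588.5 and 10761 in the S-phase sets. The rule asks for 4 detected genes and so favours deep barcodes. Median mitochondrial shares were 0.112% in G2/M nuclei and 0.0855% in other nuclei, and 2.95% and 2.21% in cells. MALAT1, a nuclear RNA, stood at 428 counts per 10000 in G2/M nuclei and 374 in others, and at 272 and 297 in cells.

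In this barcoding scheme the first-round wells take up the samples, and which well took which is not known. The share of passing barcodes that were G2/M barcodes had a median of 4.59% over the 12 nuclei wells (3.16% to 9.24%) and of 5.98% over the 48 cell wells (0% to 33.3%). Among the 35 cell wells with at least 50 passing barcodes it ran from 1.28% to 26.9%, with a median of 6.0%. The sub-libraries were closer, at 4.27% to 4.54% in nuclei and 6.53% to 8.55% in cells. No well decided the set, since the largest gave 85 of the 500 nuclei and 47 of the 500 cells. The plot of scores and well shares shows these wells, whose differences cannot be tied to a day or a treatment.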

How the data were processed

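Human brain organoids of the H9 line were profiled by split-seq, with 1 library of whole cells and 1 of nuclei. Gene counts per barcode were deposited by the authors as whole numbers, made with Spipe, the software of Parse Biosciences, against GRCh38. The metadata name no condition per barcode. Passing nuclei held a median of 4658 transcripts and passing cells 10774. From the deposited counts, levels were pooled over a set as counts per 10000 transcripts and given as log2 ratios for genes with at least 200 counts. A set under 3 counts entered at 3. Shares were taken after thinning to 2000 (nuclei) or 5000 (cells) transcripts.

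The named genes were the 15 highest and 10 lowest ratios against all other barcodes, the 8 highest and 8 lowest against the S-phase and non-dividing sets, the 8 markers and the genes of the lists, and not all of them are printed. Members, lists and tests were chosen with earlier results of these data known. The neuron and choroid plexus sets and the removal of barcodes over 30000 transcripts were added after the data were seen, as were the values of the S list with HMGB2, which the fixed list had left out. No test was fitted, since each library is 1 sample. Scrublet (scanpy 1.11.5) marked 0 barcodes, so leaving out its highest scores was tried as an alternative. Other alternatives were the number of members, the markers required, the marker set, depth, thinning, the gene filter and the mean per barcode. All 321 genes of the lists or named by rank matched GENCODE by identifier. Scripts ran in Python 3.11.15 with numpy 2.4.6, scipy 1.17.1 and pandas 2.3.3, and were tested on simulated data.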

Additional observations from a re-analysis of the deposited data

Results flagged for a closer look

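The 8 markers that chose the set were also present in barcodes too shallow to pass the filter, which no comparison uses. In 167580 nuclei barcodes and 1022725 cell barcodes of 10 to 100 transcripts, their summed level was 8.27 and 9.81 counts per 10000. This lies above the 5.10 and 5.38 of all other passing barcodes and the 0.458 and 1.19 of the neuron sets, and below the 75 and 59.9 of the G2/M sets. The other passing barcodes and the neuron sets exclude the G2/M set, which lowers their level. Standing above them thus follows in part from the choice, and the level over all passing barcodes together was not set beside it. It is listed as a value from data outside the main measurement. The part of free RNA in it was not tested, and no signal of dividing cells is read from it.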

How the results depend on the processing

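Over 15 alternatives, 128 of 162 values stayed within a tolerance, 34 moved past it and 0 turned direction. Only medians of lists could turn direction, while gene counts and EOMES shares could not. The looser gene filters could not move the medians of the G2/M, radial glia and neuron lists, whose genes had all passed already. The tally is therefore no measure of how stable the results are. The tolerance was 1.5 times for counts, the EOMES interval, and for medians 1 SD over sub-libraries, which is 0.0346 for the G2/M list in nuclei, 0.181 in cells and 0.365 for the neuron list in cells. The EOMES share stayed between 1.2% and 2.0% in nuclei and between 7.2% and 9.2% in cells. Higher genes (562 in nuclei, 387 in cells) numbered 909 and 601 with a filter of 50 counts and 1416 and 1349 with none. Lower genes numbered 1463 in nuclei (main 2208) and 630 in cells (main 1285) with a higher depth limit. In cells they numbered 2545 with 250 members, 448 with 1000, 2125 after thinning, 2024 by the mean per barcode, and 2224 with a filter of 50 counts as with none. The median of the study's G2/M list (3.19 in nuclei, 2.93 in cells) was 3.60 and 3.33 after thinning, 2.90 and 2.72 with the higher depth limit, 3.61 and 3.28 by the mean per barcode, and 3.32 and 3.29 without barcodes over 30000 transcripts, a choice made after seeing the data, as was adding HMGB2 to the S list (-0.69 to -0.67 in nuclei, 0.23 to 0.27 in cells). In nuclei it was 3.15 with 6 of 8 markers required, 3.05 without the well that gave most members, and 3.09 with the score of ASPM, KIF14, BUB1 and AURKB. The neuron median in nuclei (-2.30) was -1.87 with 1000 members, -1.92 with the higher depth limit and -2.60 without the highest Scrublet scores, and in cells (-1.14) -1.54 after thinning, -1.56 by the mean per barcode and -1.63 without barcodes over 30000 transcripts. The radial glia median in nuclei (0.72) was 0.91 with 250 members and 0.86 with the higher depth limit, and in cells (0.75) 0.94 after thinning, 0.89 by the mean per barcode and 0.91 without barcodes over 30000 transcripts. Fewer genes pass the stricter filter, and for the other shifts the cause was not tested. Leaving out the highest Scrublet scores removed 10 nuclei and 37 cells of the G2/M sets (2.0% and 7.4%).

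No paired analysis was possible because each library is 1 sample with no replicate. Low counts limit single genes in nuclei, where 14554 genes passed the filter beside 19727 in cells. Intervals cover counting error only, and neither organoids, days nor treatments can be compared.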

Other observations

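Of the 300 genes over 2-fold higher in both libraries, 201 were on no list, and the following were picked after their values were seen. APOLD1, known as an endothelial stress gene, stood at 21.2 counts per 10000 transcripts in G2/M nuclei and 1.80 in other nuclei, and at 9.27 and 1.35 in cells, log2 ratios of 3.56 and 2.79. GPSM2, which orients the spindle by linking it to the cell cortex, had 3.04 and 2.22, and NDE1, a partner of LIS1 and a microcephaly gene, 3.18 and 2.65. The nuclear import receptor KPNA2 had 3.49 and 2.69, CCNF, the F-box cyclin, 3.30 and 2.47, the phosphatase CDKN3 3.36 and 2.92, RGS3, a regulator of G protein signalling, 3.44 and 2.53, and the tubulin chaperone TBCD 2.33 and 1.75. FOXN4, a transcription factor known from retinal and spinal progenitors, stood at 2.96 counts per 10000 in G2/M nuclei and 0.348 in others, and at 1.27 and 0.204 in cells, log2 ratios of 3.09 and 2.64. ARHGAP11A (3.21 and 2.93) and ARHGAP11B (3.10 and 2.92), the latter present only in humans, are near-identical copies whose reads the counting could split, so their separate values are uncertain.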
